A study of Homo sapiens with 18 samples.

Results

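A set of 9 genes of pericellular proteolysis was followed through the 3′ mRNA counts of sgERH and control RKO cells: the matrix metalloproteinases MMP1, MMP3, MMP10 and MMP14, the metalloproteinase inhibitors TIMP1 and TIMP2, the plasminogen activators PLAU and PLAT, and the urokinase receptor PLAUR. They were chosen by gene symbol, with the higher MMP3 count of the sgERH cells already known, so the difference between guides of these genes is described here and not tested. All 9 symbols were among the 39859 listed in the count tables. Of the 9, 8 passed the filter on low counts and TIMP2 did not, since it had 0 reads in each of 18 libraries.

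Matrix metalloproteinases are zinc enzymes made as inactive precursors that cut collagens, proteoglycans and other proteins around the cell once the propeptide is removed. Tissue inhibitors of metalloproteinases (TIMPs) block the active enzymes. Urokinase (PLAU), held at the cell surface by its receptor PLAUR, and tissue plasminogen activator (PLAT) turn plasminogen into plasmin, which in turn can activate several of the precursors. In inflamed and tumour-bearing colon these genes are known mostly from stromal and immune cells, and the carcinoma cells themselves can contribute, often after cytokine or growth factor signals that act through AP-1 and ETS transcription factors.

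The cells were RKO-iCas9, a single-cell-derived clone of a human colon carcinoma line in which doxycycline switches on Cas9, transduced with lentiviral guides and sorted. Guides targeted ERH, a small nuclear protein linked to RNA processing (sgERH), or the AAVS1 safe-harbour locus (sgAAVS1, the control). All groups received 100 ng/mL doxycycline for 5 days and then either water (non-treated, NT), 25 ng/mL IFNγ or 10 ng/mL IL-1β for 4 h. Each of the 6 groups of guide and treatment had 3 libraries, of which the study's methods dropped 1 each from sgAAVS1 NT, sgERH IFNγ and sgAAVS1 IL-1β, leaving 7 sgAAVS1 and 8 sgERH libraries. The labels call the replicates biological and do not say whether they were separate cultures, so the p-values below measure the spread between these libraries.

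The 15 libraries held between 4987127 and 5986338 reads (median 5242702). Levels are given as CPM, the reads of a gene per 1000000 reads of its library after TMM scaling. ERH itself stood at 636 ± 9.26 CPM (SD, n = 2) in sgAAVS1 NT and at 298.5 ± 30.8 CPM (SD, n = 3) in sgERH NT, and ranged from 537.3 to 642.5 CPM in the control libraries against 252.9 to 340 CPM in the sgERH libraries. Of 8 epithelial and colon markers, 4 had at least 10 reads (EPCAM, KRT8, KRT18 and CDX2), whereas KRT19 and KRT20 were at 0 and CDH1 and VIL1 had 1 read each. The epithelial list summed to 126.7 to 156.9 CPM in control and to 100.2 to 124.1 CPM in sgERH libraries, without overlap. The 8 fibroblast markers summed to at most 0.363 CPM in control and 2.22 CPM in sgERH libraries, and the 4 endothelial markers were at 0 in control and at most 0.363 CPM in sgERH libraries. Of 8 leukocyte markers only CD68, a lysosomal protein, had at least 10 reads, and PTPRC was at 0. The leukocyte sums were 410.4 to 467.8 CPM in control and 387.1 to 485.9 CPM in sgERH libraries. The part of these marker differences in the guide differences below was not tested. The second IL-1β library of sgERH stood apart from its group in TIMP1 and PLAUR, whose values are given with and without it.

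MMP10, MMP1 and MMP3 lie side by side on chromosome 11 (GRCh38, GENCODE 44, minus strand), at 102770502 to 102780628, 102789401 to 102798160 and 102835801 to 102843609, within 73.1 kb. The annotation places 9 metalloproteinase genes in this neighbourhood, and the other 6 had almost no reads: MMP7, MMP8, MMP20 and MMP27 were at 0 in all 15 libraries, and MMP12 and MMP13 had 1 read each, both in sgERH cells. The remaining genes are dispersed, with MMP14 on chromosome 14 (22836560 to 22849041), TIMP1 on X (47582408 to 47586789), TIMP2 on chromosome 17 (78852977 to 78925387), PLAU on chromosome 10 (73909177 to 73917496), PLAUR on chromosome 19 (43646095 to 43670547) and PLAT on another chromosome. Although MMP1, MMP3 and MMP10 are similar in sequence, 2.89%, 0.799% and 0% of their reads mapped to more than one place, against 20.4% to 23.2% of all reads in a library.

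RefSeq promoter windows (GRCh38.p14, 250 bases before to 50 after the start site) were at hand for 5 of the 9 genes, namely MMP10, MMP14, TIMP1, PLAU (2 start sites) and PLAUR, and not for MMP1, MMP3, TIMP2 and PLAT. Both strands were searched for 4 motifs. The AP-1 motif TGANTCA occurs in 7.71% of all 35116 windows, and the STAT motif TTCNNNGAA in 7.66%. The TATA box TATAAA occurs in 11.5% and the ETS motif CCGGAAG in 10.3% of them. MMP10 held an AP-1 match whose first base is at -67 and a TATA box at -31 from the start site, PLAUR held an AP-1 match at -186, and the windows of MMP14, TIMP1 and PLAU held none of the 4 motifs. The 250 bases before the MMP10 start (chr11:102780629-102780878, minus strand) and before the PLAUR start (chr19:43670170-43670419, minus strand) are shown because both hold the AP-1 letters. Any part of these motifs in the guide differences was not tested. Capitals mark the matches, which describe these letters and not bound sites.
MMP10: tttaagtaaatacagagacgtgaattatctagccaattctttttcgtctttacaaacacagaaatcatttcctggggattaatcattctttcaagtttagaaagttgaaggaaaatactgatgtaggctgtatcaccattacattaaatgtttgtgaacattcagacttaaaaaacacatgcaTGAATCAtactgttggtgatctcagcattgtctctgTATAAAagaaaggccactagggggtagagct
PLAUR: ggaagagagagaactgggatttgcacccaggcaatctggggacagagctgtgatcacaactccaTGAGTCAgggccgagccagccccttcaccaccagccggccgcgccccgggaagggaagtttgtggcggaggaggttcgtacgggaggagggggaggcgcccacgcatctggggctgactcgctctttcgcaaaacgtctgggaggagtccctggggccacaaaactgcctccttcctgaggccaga

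MMP3, stromelysin-1, cleaves proteoglycans and activates other metalloproteinase precursors, and its mRNA was near the detection limit in control cells. In sgAAVS1 NT it had 20 and 8 reads (4.20 and 1.45 CPM), with IFNγ 2, 4 and 7 reads (0.416, 0.747 and 1.43 CPM) and with IL-1β 3 and 7 reads (0.606 and 1.44 CPM). In sgERH NT it had 93, 88 and 104 reads (16.2, 15.9 and 17.7 CPM), with IFNγ 60 and 90 (11.1 and 16.4 CPM) and with IL-1β 94, 68 and 103 (16.6, 13.0 and 18.1 CPM). The guides did not overlap, the lowest sgERH library lying above the highest control library, as was the case for 8.1% of all tested genes. In such bulk samples more expressing cells and more RNA per cell cannot be told apart. On the log2 scale the guide difference was 2.58 ± 0.38 (SE) in NT, 3.95 ± 0.50 with IFNγ and 3.94 ± 0.54 with IL-1β, and 3.49 ± 0.28 on average, an 11.2-fold difference. Only 1 of 7 control libraries had 10 or more MMP3 reads, and the gene passed the filter on low counts only through the sgERH libraries, so the size of the NT difference rested on single libraries: it was 3.49 without the second NT library of sgAAVS1 and 1.97 without the third, and the IL-1β difference was 4.66 without the second IL-1β library of sgAAVS1.

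MMP1, interstitial collagenase, cuts fibrillar collagens and was read at 10 or more reads in every library. Control cells had 33 and 31 reads in NT (6.93 and 5.62 CPM), 26, 24 and 17 with IFNγ (5.40, 4.48 and 3.48 CPM) and 24 and 22 with IL-1β (4.84 and 4.51 CPM). The sgERH cells had 183, 174 and 199 reads in NT (31.8, 31.4 and 33.8 CPM), 167 and 187 with IFNγ (30.9 and 34.0 CPM) and 232, 197 and 182 with IL-1β (41.0, 37.6 and 31.9 CPM). Here too every sgERH library lay above every control library, and within the sgERH cells the ranges of the 3 treatments overlapped. The guide difference was 2.37 ± 0.22 in NT, 2.86 ± 0.22 with IFNγ and 2.97 ± 0.24 with IL-1β on the log2 scale, and 2.73 ± 0.13 on average, 6.65-fold.

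MMP10, stromelysin-2, is the closest relative of MMP3 among these genes, and its reads scattered widely between control libraries. It had 20 and 2 reads in sgAAVS1 NT (4.20 and 0.363 CPM), 5, 22 and 13 with IFNγ (1.04, 4.11 and 2.66 CPM) and 7 and 23 with IL-1β (1.41 and 4.72 CPM). In sgERH cells it had 65, 65 and 69 reads in NT (11.3, 11.7 and 11.7 CPM), 57 and 53 with IFNγ (10.5 and 9.63 CPM) and 69, 44 and 71 with IL-1β (12.2, 8.39 and 12.5 CPM). The guides again did not overlap, and the 3 NT libraries of sgERH lay close together, between 11.3 and 11.7 CPM. The average guide difference was 2.06 ± 0.32 on the log2 scale, 4.16-fold, and 2.89 without the second NT library of sgAAVS1. In NT it was 2.40 ± 0.59, moving to 4.91 without the second and to 1.45 without the third NT library of sgAAVS1, and with IL-1β it was 1.85 ± 0.55, moving to 1.22 and 2.94 without the first and the second IL-1β library of sgAAVS1.

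MMP14, the membrane-anchored collagenase MT1-MMP, which activates MMP2 at the cell surface, stood at similar levels with both guides. Control libraries ranged from 50.9 to 66.2 CPM (median 59.2) and sgERH libraries from 52.3 to 86.0 CPM (median 66.1). The ranges overlapped, and the average guide difference was 0.18 ± 0.09 on the log2 scale. It was -0.06 ± 0.15 in NT, 0.31 ± 0.15 with IFNγ and 0.30 ± 0.15 with IL-1β, the last between 0.13 and 0.47 over single libraries left out.

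**Figure D1:**
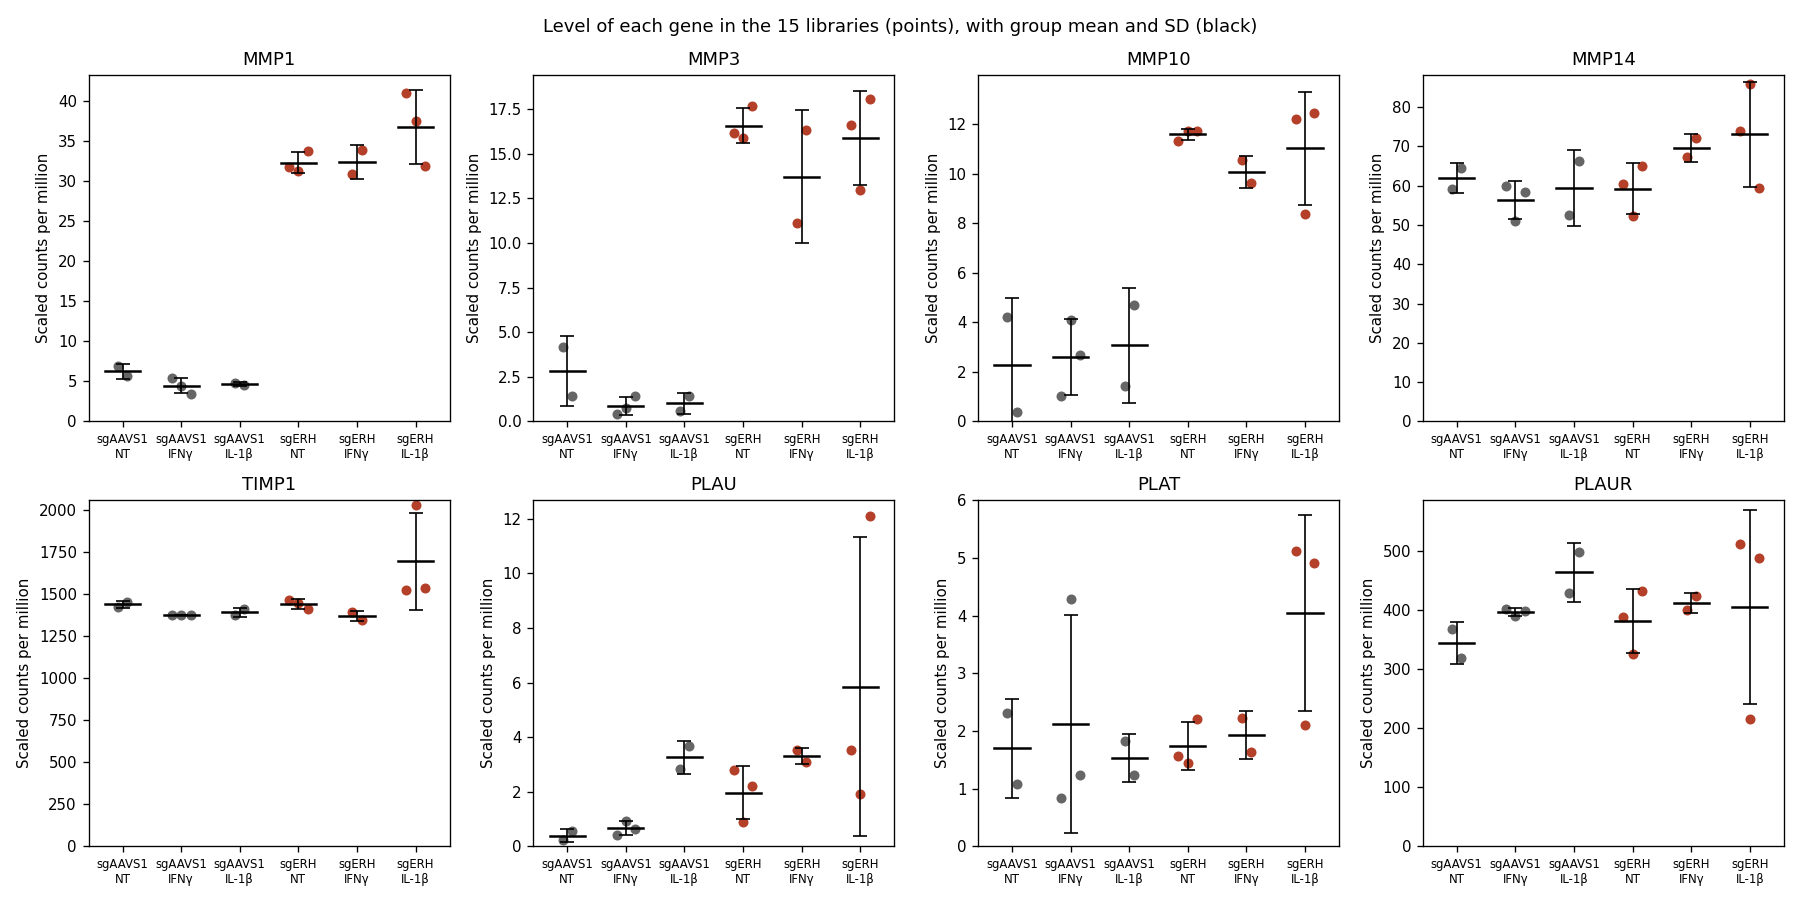
TMM-scaled CPM of the 8 genes with reads (one panel each, every y axis from 0) in the 6 groups. Points are libraries, with 7 sgAAVS1 libraries in grey and 8 sgERH libraries in red, black lines are group means and bars the SD. For MMP1, MMP3 and MMP10 all red points lie above all grey points, and for the other 5 genes the guides overlap.

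TIMP1, the secreted inhibitor of most metalloproteinases, was read most deeply of the 9, with 116848 reads over the 15 libraries, and was nearly the same in all groups but one. It stood between 1347 and 1463 CPM in all libraries of 5 groups and at 1521, 2027 and 1534 CPM in the 3 sgERH libraries with IL-1β, the 2027 being the second library. The average guide difference was 0.09 ± 0.06 on the log2 scale and with IL-1β it was 0.28 ± 0.11, against 0.04 and 0.13 without that library. TIMP2, which inhibits metalloproteinases and also takes part in MMP2 activation by MMP14, had a counting window of 754 bases and no read in any library, which allows a level of up to 3 reads, or 0.254 to 0.787 CPM depending on the depth of the library. These limits cover counting error only.

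PLAU had too few reads for a firm statement. Control cells had 1 and 3 reads in NT (0.210 and 0.544 CPM), 2, 5 and 3 with IFNγ (0.416, 0.933 and 0.614 CPM) and 14 and 18 with IL-1β (2.83 and 3.69 CPM). The sgERH cells had 16, 5 and 13 reads in NT (2.78, 0.901 and 2.21 CPM), 19 and 17 with IFNγ (3.51 and 3.09 CPM) and 20, 10 and 69 with IL-1β (3.54, 1.91 and 12.1 CPM). Both control libraries with IL-1β stood above all control libraries without it, and the third IL-1β library of sgERH stood far above the other two. The guide difference was 2.28 ± 1.06 on the log2 scale in NT (3.09 without the third NT library of sgAAVS1), 2.28 ± 0.79 with IFNγ and 0.85 ± 0.58 with IL-1β, the last turning to -0.25 without the third IL-1β library of sgERH. On average it was 1.80 ± 0.48, 3.49-fold, with overlapping guides.

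PLAT, the tissue-type activator, was also thinly read, with 10 or more reads in 2 of 7 control and 5 of 8 sgERH libraries. It ranged from 0.831 to 4.29 CPM in control libraries, where the highest value came from a single IFNγ library with 23 reads, and from 1.44 to 5.13 CPM in sgERH libraries. The 2 highest sgERH values, 5.13 and 4.91 CPM, both came with IL-1β, and the other library of that group had 2.10 CPM. The average guide difference of 0.43 ± 0.37 on the log2 scale was about as large as its error.

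PLAUR, the anchored receptor that gathers urokinase at the cell surface, was well read at 31952 reads. It stood at 369.1 and 318.8 CPM in sgAAVS1 NT, 402.1, 390.1 and 399.6 with IFNγ and 429.3 and 499.4 with IL-1β. In sgERH cells it stood at 388.5, 325.3 and 433.3 CPM in NT, 400.1 and 424.9 with IFNγ and 512.1, 215.6 and 488.3 with IL-1β. The 215.6 CPM of the second IL-1β library of sgERH was the lowest of all 15, and the highest 3 values were the other two of that group and 1 control library with IL-1β. The average guide difference was 0.00 ± 0.17 on the log2 scale and with IL-1β it was -0.20 ± 0.29, against 0.10 and 0.11 without that library.

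Counted by the threshold used throughout (edgeR adjusted p of at most 0.05 over 13370 genes and at least a 2-fold difference), MMP1, MMP3 and MMP10 were higher with sgERH in NT and with IL-1β, PLAU joined them with IFNγ and on average, and none of the 8 was lower. The rule behind the gene list used this contrast, so the counts of 3, 4, 3 and 4 of 8 in NT, IFNγ, IL-1β and on average carry no weight of their own. Among all tested genes 5.95% rose and 2.3% fell in NT, 5.24% and 2.37% with IFNγ, 5.68% and 2.8% with IL-1β, and 6.75% and 2.14% on average. TMM factors were 0.916 to 0.967 for control and 1.02 to 1.08 for sgERH libraries. With library totals alone the median guide difference of all genes moved from 0.04 to 0.20 on the log2 scale and the calls from 903 higher and 286 lower to 1239 and 160, while MMP3 moved from 3.49 to 3.65.

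**Figure D2:**
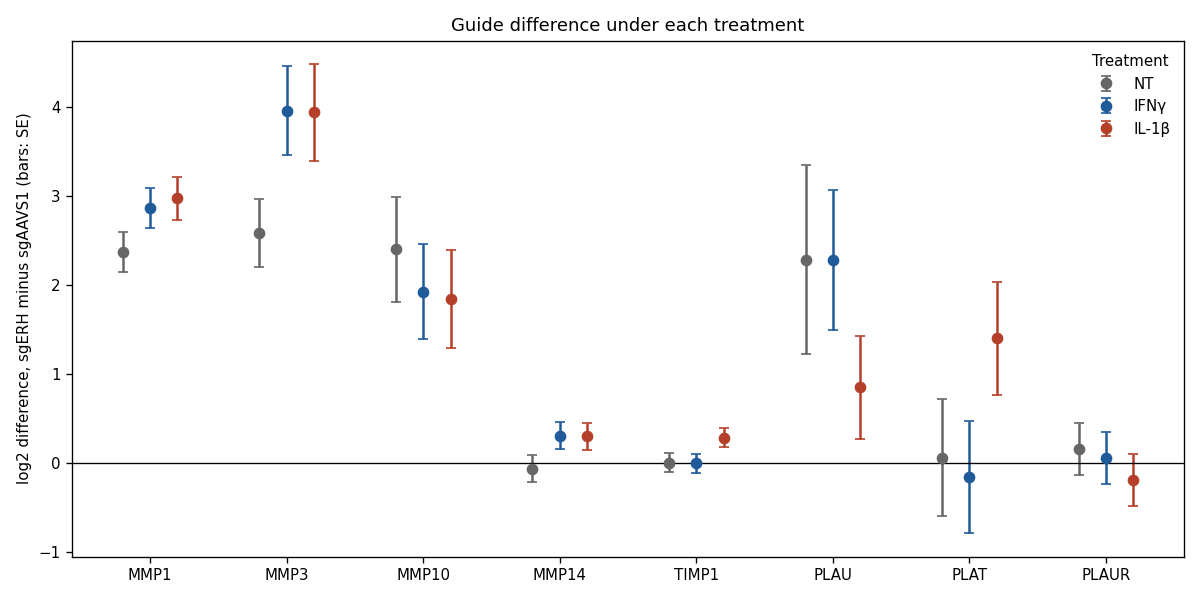
Log2 difference between sgERH and sgAAVS1 (y axis) for the 8 genes with reads under NT, IFNγ and IL-1β, with bars for the SE from the edgeR fit. MMP1 and MMP3 lie above 2 under each treatment, MMP10 lies between 1.85 and 2.40, and MMP14, TIMP1 and PLAUR lie within 0.31 of 0.

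The cytokine responses were tested, as the gene list did not rest on them: whether 4 h of IFNγ or IL-1β changed the level within each guide. None of the 8 genes passed the threshold in any of the 4 comparisons, by edgeR or by DESeq2. The background was low as well, with 0.598% of genes called for IFNγ and 0.636% for IL-1β in control cells, and 0.015% and 0.292% in sgERH cells. It moved with single libraries: the 85 genes called for IL-1β in control cells became 18 without the second NT library of sgAAVS1 and 261 without the second IL-1β library of sgERH, and the 39 in sgERH cells became 19 without the second NT and 87 without the third IL-1β library of sgERH. At an unadjusted edgeR p under 0.05 the count was 1 and 2 of 8 in control cells for IFNγ and IL-1β, where 9.37% and 12.6% of all genes had such a p. In sgERH cells it was 0 and 4 of 8, against 6.64% and 14% of all genes. The 4 became 2 or 3 when any NT or IL-1β library of sgERH was left out. It was 2 with only the compared groups and 0 with all 18 libraries.

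PLAU had the largest estimates. With IL-1β its log2 change was 3.00 ± 1.08 (SE) in control cells, from a mean of 0.377 to 3.26 CPM (edgeR adjusted p = 0.127), and 1.57 ± 0.54 in sgERH cells, from 1.97 to 5.85 CPM (edgeR adjusted p = 0.16). Both results depended on the fit and on single libraries. In control cells the edgeR adjusted p ranged from 0.0181 to 0.507 when single libraries were left out, and PLAU passed without the second or without the third IL-1β library of sgERH (adjusted p = 0.0181 and 0.0351), which are not among the libraries compared but share the model. The change was 3.80 without the third NT library of sgAAVS1. In sgERH cells PLAU passed without the second IL-1β library (1.97, edgeR adjusted p = 0.0267) and stood at 0.47 without the third (edgeR adjusted p = 0.695).

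MMP3 ran the other way in control cells, with log2 changes of -1.65 ± 0.56 for IFNγ (edgeR adjusted p = 0.212) and -1.42 ± 0.62 for IL-1β (edgeR adjusted p = 0.289), and smaller values in sgERH cells, -0.27 ± 0.28 and -0.06 ± 0.25. These control values turned on the 20 reads of the second NT library, without which they were -0.73 and -0.50. Without the third they were -2.25 and -2.03, and without the second IL-1β library the IL-1β value was -2.14. Since MMP3 passed the filter on low counts only through the sgERH libraries, its responses are read as a description. The log2 estimates of MMP1 were -0.49 ± 0.26 and -0.42 ± 0.29 in control and 0.00 ± 0.18 and 0.19 ± 0.16 in sgERH cells, for IFNγ and IL-1β in turn. Those of MMP10 were 0.27 ± 0.66 and 0.48 ± 0.71 in control cells, values that took either sign when an NT library was left out (2.79 and 3.00 without the second, -0.66 and -0.46 without the third), and -0.20 ± 0.44 and -0.07 ± 0.39 in sgERH cells.

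For TIMP1 the log2 estimates were -0.06 ± 0.11 with IFNγ and -0.05 ± 0.12 with IL-1β in control cells and -0.07 ± 0.11 and 0.23 ± 0.10 in sgERH cells, the last with an edgeR adjusted p of 0.259 and a value of 0.08 without the second IL-1β library. MMP14 reached 0.30 ± 0.13 with IL-1β in sgERH cells (edgeR adjusted p = 0.297) and lay between -0.14 and 0.23 in the other 3 comparisons. PLAUR had estimates of 0.43 ± 0.32 with IL-1β in control cells (edgeR adjusted p = 0.643) and 0.08 ± 0.26 in sgERH cells (edgeR adjusted p = 0.926). Without the second IL-1β library of sgERH the edgeR adjusted p were 0.00624 and 0.0205 at log2 values of 0.42 and 0.38, under the 2-fold limit. PLAT reached 1.21 ± 0.52 with IL-1β in sgERH cells (edgeR adjusted p = 0.278) against -0.13 ± 0.75 in control cells.

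**Figure D3:**
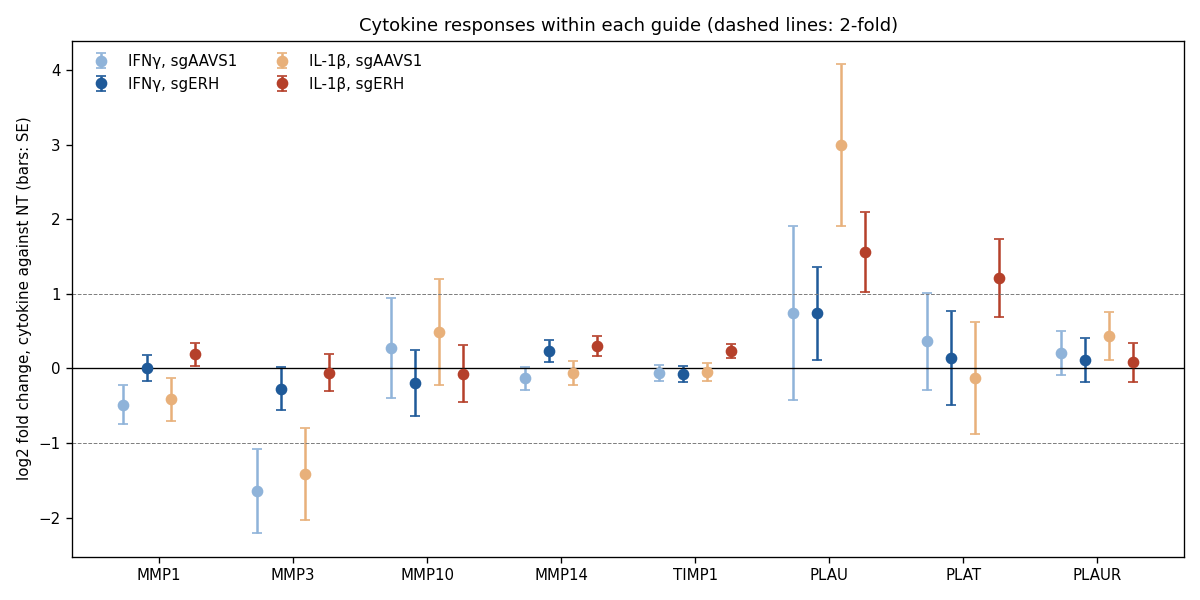
Log2 fold change (y axis) of IFNγ or IL-1β against NT within each guide for the 8 genes with reads. Points are edgeR estimates, bars the SE and dashed lines mark 2-fold. PLAU with IL-1β lies at 3.00 in control and 1.57 in sgERH cells, and MMP3 in control cells lies at -1.65 and -1.42, none of them passing the adjusted threshold.

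Whether the response differed between guides was tested as an interaction. None of the 8 genes passed for IFNγ or IL-1β by edgeR or DESeq2, where edgeR called 0.202% and 0% of all genes. Without the third IL-1β library of sgERH the 0 genes of the IL-1β interaction became 140, with none of the 8 among them. At an unadjusted edgeR p under 0.05 there was 1 of 8 in each, MMP3 both times, where 5.84% and 11.1% of all genes had such a p. MMP3 passed the filter on low counts only through the sgERH libraries and had 2 to 20 reads in control libraries, so its p-values carry no weight. Its response was 1.38 ± 0.63 higher on the log2 scale in sgERH than in control cells for IFNγ (edgeR adjusted p = 0.798) and 1.36 ± 0.67 for IL-1β (edgeR adjusted p = 0.433), and 0.46 and 0.44 without the second NT library of sgAAVS1. The PLAU response to IL-1β differed by -1.43 ± 1.21 (edgeR adjusted p = 0.63), or by -2.53 without the third IL-1β library of sgERH and -2.25 without the third NT library of sgAAVS1. That of PLAT differed by 1.34 ± 0.91 (edgeR adjusted p = 0.569), or by 0.73 without the second NT library of sgAAVS1.

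In the order of the 6 group means, with ranges over 2 or 3 libraries a group, neighbours of MMP10 separated only at the step between guides. MMP1 and MMP3 had that step too, and below it NT in control cells (6.28 and 2.83 CPM) did not overlap the next group down (4.68 and 1.02 CPM, IL-1β), for MMP3 by the margin of 8 against 7 reads. MMP14 ran from 73.0 CPM in sgERH with IL-1β to 56.4 CPM in sgAAVS1 with IFNγ and separated only between sgERH with IFNγ (69.6 CPM) and sgAAVS1 NT (61.9 CPM). PLAU separated only between sgAAVS1 with IL-1β (3.26 CPM) and sgERH NT (1.97 CPM). For PLAT all neighbouring groups overlapped, from 4.05 CPM in sgERH with IL-1β down to 1.52 CPM in sgAAVS1 with IL-1β. For TIMP1 the top group, sgERH with IL-1β (1694 CPM), did not overlap the next (1440 CPM, sgERH NT), nor sgAAVS1 NT (1439 CPM) the group below it (1392 CPM, sgAAVS1 with IL-1β). For PLAUR the top group was sgAAVS1 with IL-1β (464.4 CPM), above sgERH with IFNγ (412.5 CPM), and the groups below overlapped with their neighbours. This order rests on the second IL-1β library of sgERH (215.6 CPM), which brought its group mean to 405.3 CPM. The other libraries of that group, at 512.1 and 488.3 CPM, lay above 464.4 CPM.

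By shape over the 6 groups (root-mean-square difference of centred mean log2 CPM) the 5 tested genes nearest to MMP3 were PTPN22 (0.270), MYCT1 (0.327), AC078993.1 (0.335), NR4A2 (0.346) and AC005332.5 (0.373). MMP1 was at position 7 of 13369 (0.402) and MMP10 at position 74 (0.808), while PLAU was at 2286 and PLAUR at 7749. These distances are a description of 6 means from shared libraries.

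Of 70 other genes of the same pathways, listed from textbook knowledge with earlier results of these libraries known, 33 were tested. On average over treatments 7 were called higher and 1 lower with sgERH, where 6.75% and 2.14% of all tested genes were. Of the 33, 5 passed the filter on low counts only through the sgERH libraries, and 3 of the 7 higher ones (MMP19, MMP15 and ADAMTS6) were among them, so their reads are given without a test. Of the 28 that also pass on the control libraries alone, 5 were called.

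Only 4 of 19 other metalloproteinases passed the filter. MMP19, a secreted enzyme of basement membrane turnover, had 4 reads in the 7 control libraries and 119 in the 8 sgERH libraries. That was a ratio of 26 after division by the reads sequenced. Every sgERH library, at 6 to 22 reads, exceeded every control library, as was the case for 8.1% of all tested genes. MMP15, a membrane-type enzyme like MMP14, had 4 to 16 reads in control and 14 to 29 in sgERH libraries, so the guides overlapped. Neither of the 2 tested genes among 6 inhibitors and activators, FURIN and BSG, passed.

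In the plasminogen list 6 of 14 were tested and 1 fell on average over treatments, where 2.14% of all tested genes fell. In NT alone 1 rose and 2 fell, where 5.95% and 2.3% of all tested genes did. S100A10, which with ANXA2 forms a plasminogen-binding complex at the cell surface, stood between 163.1 and 234.7 CPM in the control libraries and between 79.4 and 100.4 CPM in the sgERH libraries, and fell by 1.19 ± 0.07 on the log2 scale (edgeR adjusted p = 6.4e-14). ANXA2, chosen for mention after its values were seen, stayed under 2-fold, with a difference of -0.61 ± 0.06 (edgeR adjusted p = 1.49e-09). PLG, the substrate of both activators, did not pass the filter on low counts.

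Of 17 ADAM and ADAMTS proteases 7 passed the filter, among them ADAMTS6, with 0 to 3 reads in control and 7 to 29 reads in sgERH libraries. All 14 transcription factors of the AP-1, ETS and RUNX list were tested and 4 rose on average, where 6.75% of all tested genes rose. These were JUND by 1.64 ± 0.07 (edgeR adjusted p = 8.66e-16), ATF3 by 1.60 ± 0.26 (edgeR adjusted p = 4.76e-06), FOS by 1.27 ± 0.22 (edgeR adjusted p = 2.17e-05) and RUNX2 by 1.05 ± 0.27 (edgeR adjusted p = 0.00144). Of the 14, 10 lay above 0 and 4 below. ETS1, also chosen for mention after its values were seen, was lowest at -0.60 ± 0.08 (edgeR adjusted p = 7.88e-07), under 2-fold. JUND lay between 60.2 and 77.9 CPM in control and between 182 and 270.7 CPM in sgERH libraries. By treatment RUNX2 stood at 0.04 ± 0.41 in NT (edgeR adjusted p = 0.957), 2.19 ± 0.44 with IFNγ (edgeR adjusted p = 0.000351) and 0.91 ± 0.52 with IL-1β (edgeR adjusted p = 0.186). FOS rose by 1.91 ± 0.47 in NT (edgeR adjusted p = 0.00176) and by 1.28 ± 0.35 with IFNγ (edgeR adjusted p = 0.00676), and stood at 0.62 ± 0.34 with IL-1β (edgeR adjusted p = 0.179). The NT value of FOS was 1.63 without the third NT library of sgAAVS1. Its IFNγ value was 0.85, under 2-fold, without the first IFNγ library of sgERH. On average RUNX2 was under 2-fold, between 0.945 and 0.996 on the log2 scale, without the third NT, the third IFNγ or the second IL-1β library of sgAAVS1 or the first NT library of sgERH.

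With cytokines the 33 genes gave 1 call, FOS with IL-1β in control cells, at 1.98 ± 0.50 on the log2 scale (edgeR adjusted p = 0.0367), from 9 and 7 reads to 23 and 38. The call was lost when the second or the third NT, the first IFNγ or the second IL-1β library of sgAAVS1 was left out, with adjusted p from 0.051 to 0.447. For the other 3 comparisons the count was 0 by edgeR and by DESeq2, with 6, 4 and 7 genes at an unadjusted edgeR p under 0.05 for IFNγ in control, IFNγ in sgERH and IL-1β in sgERH cells, where 9.37%, 6.64% and 14% of all genes had such a p.

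**Figure D4:**
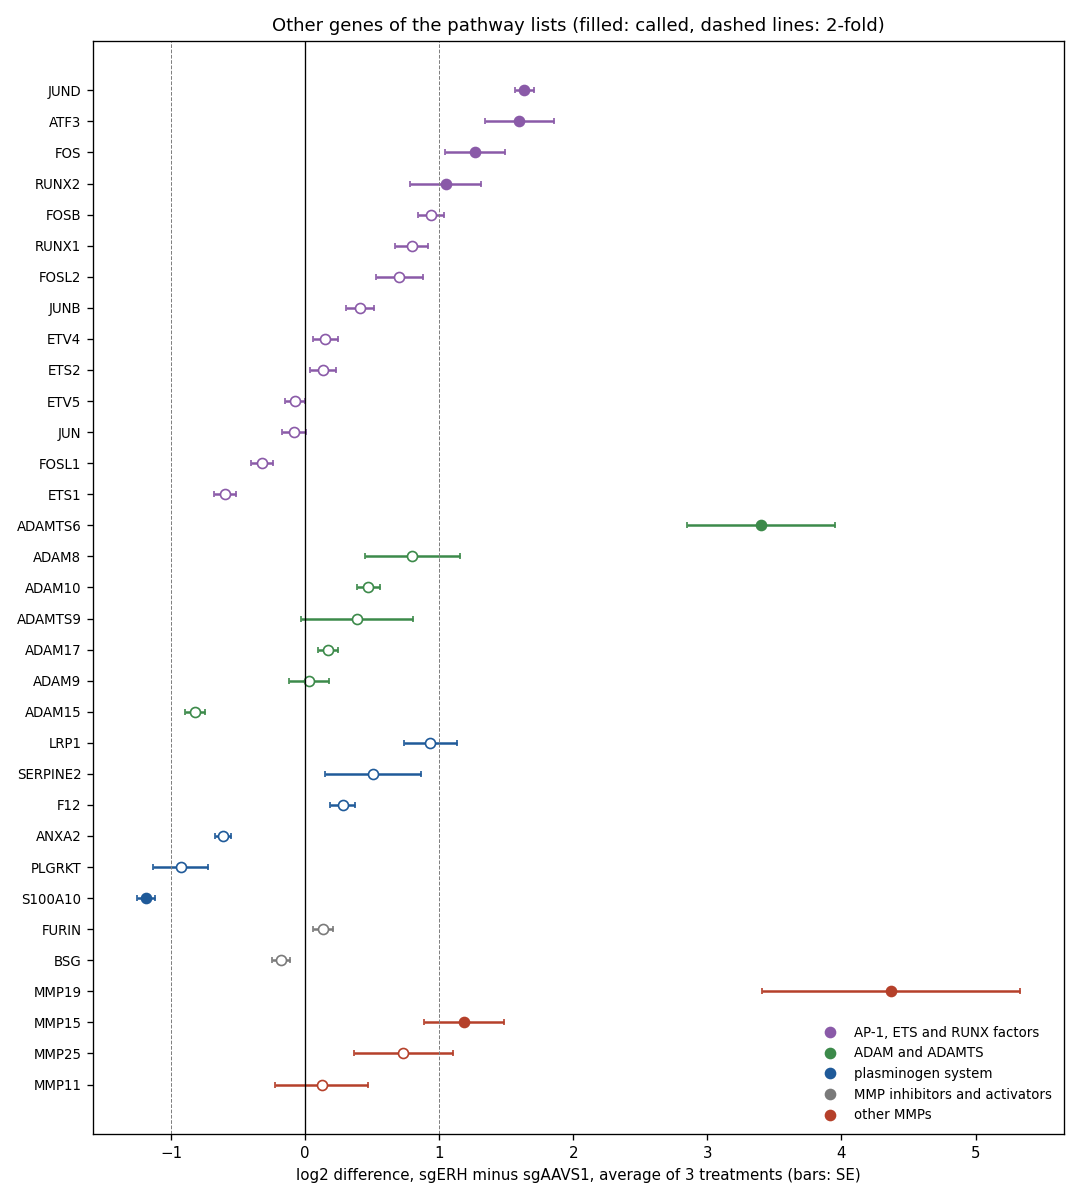
Log2 difference between sgERH and sgAAVS1, averaged over 3 treatments (x axis), for the 33 tested genes of the pathway lists (y axis), coloured by list, with bars for the SE from the edgeR fit. Filled points passed an adjusted p of at most 0.05 and 2-fold (dashed lines). MMP19, ADAMTS6 and MMP15 are also filled but passed the filter on low counts only through the sgERH libraries, so their fill is not read as a test. MMP19 and ADAMTS6 lie farthest to the right.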

How the data were processed

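QuantSeq 3′ mRNA libraries of RKO-iCas9 cells were analysed from the deposited read counts, which the authors had made by trimming (Trim Galore 0.6.2, with FastQC 0.11.8, per the submitters' processing notes), mapping to GRCh38 with SlamDunk and counting reads per gene symbol in windows at annotated 3′ ends. Of 18 libraries, 15 were used, leaving out the 3 that the study removed. edgeR 4.0.16 (R 4.3.3) was run with TMM scaling, filterByExpr and robust quasi-likelihood F tests in 1 model of the 6 groups (13370 genes tested, common biological variation 12.6%), with Benjamini-Hochberg adjustment over all genes. A gene was called when its adjusted p did not exceed 0.05 and its log2 change was 1 or more in size. SEs are Wald errors of the fit. The script was tested on simulated data. Replicate numbers showed little sign of pairing: of 30 same-number pairs across groups, 1 had deviations correlated over 0.1. Deviations over all genes in such small groups are mostly noise, so this cannot decide whether the samples were paired. No libraries were identical. Alternatives were DESeq2 1.42.0, its size factors, no filter, all libraries, fewer groups, multimapping reads subtracted, a replicate block, single libraries left out and, added after seeing the data, library totals alone.

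All 9 genes are named, and of the other pathway genes those called in the average guide difference or a cytokine response, at most 4 for each list and comparison. The genes and lists were chosen with earlier results of these data known, and 1 gene of the lists is not reported here. Marker lists were checked by whole-list sums, and promoter windows came from RefSeq.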

Additional observations from a re-analysis of the deposited data

Results flagged for a closer look

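The 3 libraries left out of the fits held 5 of these genes above every control library that was used. Values are CPM of all reads in a library, without TMM scaling. In the left-out sgERH IFNγ library (replicate 2), MMP1 stood at 32.6 (140 reads), MMP3 at 9.32 (40 reads) and MMP10 at 5.59 (24 reads), against highest control values of 6.34, 3.84 and 4.45. MMP14 stood at 114.6 and TIMP1 at 2481 there, against 62.5 and 1339. In that library PLAUR had 96 reads and PLAU 0, and ERH stood at 126, against 257.3 to 355.5 in the sgERH libraries used. In the left-out sgAAVS1 NT library (replicate 1), MMP14 stood at 94.5 and TIMP1 at 3095, whereas PLAUR had only 62 reads and MMP3, PLAU and PLAT were at 0. ERH stood at 52.7 (201 reads) in this control library, against 515 to 591.8 in the control libraries used. The study dropped these libraries as outliers, so their levels are not read as levels of their groups. In the left-out sgAAVS1 IL-1β library (replicate 3), the deepest of all at 11821239 reads, MMP1 stood at 7.02 and TIMP1 at 1958. No group had the 4 samples that a check for single outlying libraries needs.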

How the results depend on the processing

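The count of 0 called among the 8 genes held under all alternatives run for IFNγ in either guide and for both interactions. With IL-1β it became 1 (PLAU) in control cells with no filter on low counts, with the replicate block and with only the compared groups, in sgERH cells with no filter, and in either guide ranged from 0 to 1 over single libraries left out. Besides this PLAU call, the replicate block moved the genes called over all genes for IL-1β in control cells from 85 to 174. It also moved the count of the 8 genes at an unadjusted edgeR p under 0.05 in the IL-1β interaction from 1 to 0. Under the replicate block no other printed count of called genes for the 8 genes or the pathway lists moved by over 1.5 times. The 85 became 203 with no filter, 276 with only the compared groups and 12 with all 18 libraries. Whether the replicate numbers pair the samples was not settled. MMP1 with IL-1β in control cells turned from -0.42 to 0.027 on the log2 scale with all 18 libraries. This was the 1 reversal among the responses and interactions of the 8 genes, where values within 1 SE of 0 were given no direction. Among guide differences only called ones were checked for a reversal. The uncalled PLAU difference with IL-1β turned from 0.85 to -0.25 without the third IL-1β library of sgERH. The count of 4 of the 8 called between guides on average, where 6.75% of all tested genes rose, was the same under each alternative run. It carries no weight, since the rule behind the gene list used this contrast. MMP3, which passed the filter on low counts only through the sgERH libraries, lay between 3.28 and 3.79 over single libraries left out. Of the other values for single genes, 28 guide differences moved by more than the spread, 7 responses became called, each time PLAU, and 48 calls of other pathway genes were lost.

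For the other pathway genes, all 18 libraries lowered the calls between guides from 9 to 5 in NT, from 7 to 4 with IFNγ and from 8 to 5 with IL-1β. The IL-1β count ranged from 5 to 10 over single libraries, with 5 without either IL-1β library of sgAAVS1. Their count with IL-1β in control cells went from 1 to 2 with DESeq2, no filter or only the compared groups, 0 with all 18 libraries, and 0 to 2 over single libraries. IFNγ in sgERH cells gave 1 in place of 0 with only the compared groups. The causes were not tested. At a median of 5242702 reads a library, MMP3, MMP10, PLAU and PLAT had 10 or more reads in only 1, 4, 2 and 2 of the 7 control libraries, which limits every ratio of these genes.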
